A study of Mus musculus with 23 samples.

Results

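The genes described here encode the proteins of the cytosolic ribosome. Members were taken by gene symbol (Rpl or Rps with a number, Rpsa, and Rplp0, Rplp1 or Rplp2) from array probe sets that list 1 gene, leaving out Rps6k kinases and pseudogenes. The rule used no measured value and found 49 genes on 105 probe sets, of 18193 genes in all. They were 2 stalk proteins, 21 proteins of the small subunit, 20 of the large subunit and 6 paralogues (Rpl3l, Rpl22l1, Rpl7l1, Rpl39l, Rps27l and Rps4l). Another 110 probe sets list a ribosomal protein gene beside other genes, and 28 ribosomal protein symbols occurred only there. Rplp1, Rps27a, Rpl3, Rpl32, Rpl5 and Rpl10l are no members and are not described.

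The study moved the messenger RNA of one cell type into another, a procedure named TIPeR, and measured single mouse cells on Affymetrix expression arrays after amplification of their RNA. All cells were cultured in DMEM with fetal bovine serum and drawn singly into a glass micropipette. Group fibroTIPeR was 5 fibroblasts given cardiomyocyte poly-A RNA with a lipid reagent, fibroControl 3 fibroblasts given fibroblast RNA, fibroblast 3 cells without transfection, and cardiomyocyte 4 cells without transfection. Group astroTIPeR was 6 astrocytes given cardiomyocyte RNA, and astroControl 2 mock-transfected astrocytes. The labels name no culture, animal, strain or age, so each p-value rests on cell-to-cell spread over these 23 cells and does not reach beyond them.

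A ribosome joins a small subunit, which reads the messenger, to a large subunit, which forms the peptide bond. The acidic stalk of the large subunit recruits the elongation factors. Ribosomal protein messengers are among the most abundant of a growing cell and belong to the TOP class, which begins with a C followed by a run of pyrimidines and is translated under control of mTOR. Several ribosomal proteins have paralogues that are used in a few tissues, such as Rpl3l in heart and skeletal muscle.

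RefSeq promoter entries on GRCm38.p6 were found for 43 of the 49 genes, with 51 start sites; Rps4l, Rps14, Rpl8, Rps29, Rps20 and Rpl7 had no entry. The sequences below run from 10 bases before to 20 bases from the annotated start, on the coding strand, with the longest run of a C followed by at least 4 C or T in capitals. Shown are Rplp2, Rps18 and Rpl41, which were higher in fibroTIPeR cells than in cardiomyocytes, and Rpl12, Rps10 and Rps6, whose chosen probe sets did not follow the other members over the cells, with correlations of -0.60, -0.44 and -0.12.
Rplp2 (chr7:141447641-141447670, plus strand): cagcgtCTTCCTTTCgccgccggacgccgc
Rps18 (chr17:33955646-33955675, minus strand): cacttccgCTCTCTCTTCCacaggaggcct
Rpl41 (chr10:128549149-128549178, minus strand): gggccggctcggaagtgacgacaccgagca
Rps10 (chr17:27635225-27635254, minus strand): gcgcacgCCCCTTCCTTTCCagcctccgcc
Rps6 (chr4:86857348-86857377, minus strand): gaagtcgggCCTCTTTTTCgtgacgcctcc
Rpl12 (chr2:32961702-32961731, plus strand): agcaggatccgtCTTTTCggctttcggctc

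A run of this kind lay in 31 of the 51 member windows (60.8%) and in 35.8% of the 32851 windows of all promoters. Starts with a C at the annotated base itself and 4 further pyrimidines were 8 of 51 (15.7%), against 2.51% of all promoters. The letters CTTTC, which can lie inside a marked run and were chosen after the sequences had been seen, occurred within 50 bases of the start on the coding strand in 21 of 51 member promoters (41.2%), against 12.8% of all promoters. On the other strand CTTTC occurred in 11.8% of member promoters and 12.1% of all promoters. Runs were also counted by member, at any start, for those with an entry. They were present at 15 of the 20 members with a correlation above 0.8 with the other members. The counts were 6 of the 7 with a negative correlation and 8 of the 16 remaining members. These are shares of members and are not set against the share of windows. These matches describe letters in a window and say nothing of a factor or of translation.

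Values were log2 signals, quantile normalized over the 23 arrays. The deposited columns fell in 2 sets, with medians of 5.05 to 5.58 on fibroblast and cardiomyocyte arrays and 4.28 to 4.56 on astrocyte arrays, so a level set across those sets rests on the normalization. Of 8 cardiomyocyte markers 7 had a higher mean in cardiomyocytes than in fibroblasts. The contractile genes Tnni3, Myl2 and Myh6 and the myoglobin gene Mb passed, 4 of 8 against 0.0989% of all genes. Tnnt2 was lower (7.99 against 8.46). Of 8 fibroblast markers 6 had a lower mean in cardiomyocytes, and 2, Vim and S100a4, passed, against 0.126% of all genes. Dcn (10.17 against 8.85) and Pdgfrb (11.7 against 10.51) were higher there. Cardiomyocyte 4 stood apart with a Vim level of 11.38, against 3.05 to 4.65 in the other 3 cardiomyocytes. Of 8 astrocyte markers, 1, Fabp7, had a higher mean in both astrocyte groups (5.16 and 4.23) than in every other group (3.43 to 4.17), and Aldoc and S100b did so in astroTIPeR alone. The defining marker Gfap averaged 4.69 in astroTIPeR and 5.32 in astroControl cells, against 4.87 to 6.13 in the other groups. The mean of the 8 markers ran from 6.14 to 7.31 in astroTIPeR, 5.76 to 6.16 in astroControl and 6.37 to 6.97 in cardiomyocytes, so the list did not set the labelled astrocytes apart. Of 6 macrophage and microglia markers 3 had higher means in both astrocyte groups than in every other group. The mean of those 6 ran from 7.05 to 8.47 in astroTIPeR, read 6.56 and 8.5 in astroControl, and ran from 6.01 to 7.21 over the other groups, and Ptprc and Csf1r were among the 3 that did not stand above every other group. Their part in the astrocyte values was not tested. The 18S ribosomal RNA control probe sets read 11.03 to 13.48 in fibroTIPeR 1 to 3 and 11.23 to 12.08 in fibroControl, but 7.80 and 7.88 in fibroTIPeR 4 and 5 and 6.94 to 8.24 in fibroblasts and cardiomyocytes. Probe sets of the B2 repeat, a short interspersed element, read 11.84 to 13.58 in fibroTIPeR 1 to 3 and 8.31 and 8.52 in fibroTIPeR 4 and 5. The part of these signals in the ribosomal protein values was looked at only in 2 ways. The 18S level was added to the model, and fibroTIPeR 1 to 3 or 4 and 5 were fitted alone. The 18S ranges of fibroControl and untreated fibroblasts did not meet, so there the model with 18S cannot separate the 18S level from the group. In fibroTIPeR that model rests largely on the gap between cells 1 to 3 and cells 4 and 5.

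The ribosomal protein genes were highest in fibroblasts that had received RNA and lowest in cardiomyocytes by group mean. The median over the 49 genes was 10.12, 9.80 and 9.69 in the fibroControl cells and 6.69, 7.84 and 7.75 in the untreated fibroblasts. These groups did not overlap. In fibroTIPeR cells 1 to 5 the median was 11.37, 9.04, 10.60, 7.41 and 7.46. Cells 1 and 3 lay above every fibroControl cell, and cells 4 and 5, which also had the low 18S and B2 signals, lay among the untreated fibroblasts. The cardiomyocyte medians were 6.01, 6.32, 6.01 and 6.16, the narrowest range of the groups and below every fibroblast. In astroTIPeR cells the median ran from 6.30 through 8.25 to 8.66, and the astroControl cells read 8.28 and 6.51. The astrocyte groups overlapped each other and the fibroblasts. By group mean the order was fibroControl 9.87 ± 0.22 (SD, n = 3), fibroTIPeR 9.18 ± 1.8 (n = 5), astroTIPeR 7.95 ± 0.89 (n = 6), fibroblast 7.43 ± 0.64 (n = 3), astroControl 7.40 ± 1.25 (n = 2) and cardiomyocyte 6.12 ± 0.15 (n = 4). Each of the first 4 steps of this order was smaller than the larger SD of its pair.

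**Figure D1:**
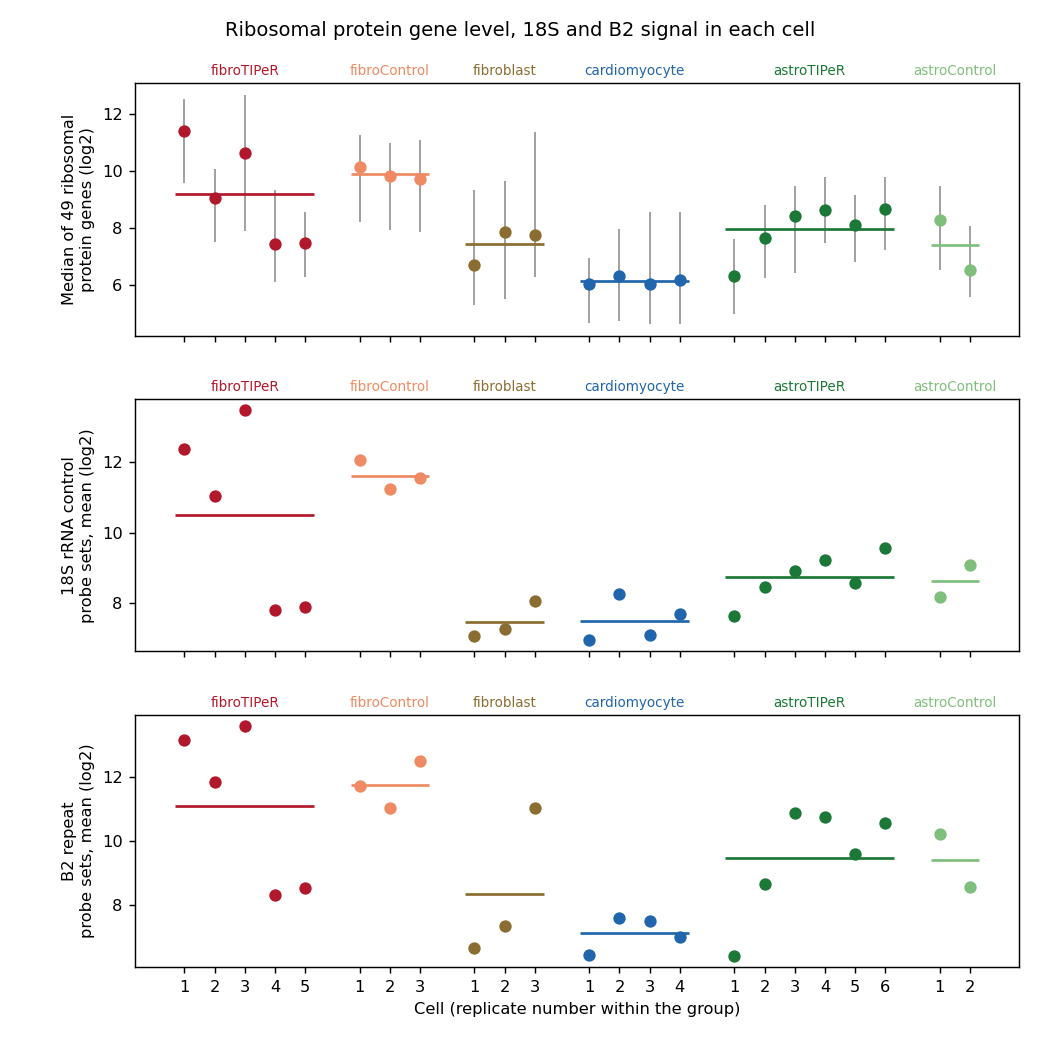
Median log2 level of the 49 ribosomal protein genes (top, grey lines span the quartiles over genes), mean log2 signal of the 18S rRNA control probe sets (middle) and of the B2 repeat probe sets (bottom) in each of 23 cells by group, with horizontal lines at group means. FibroTIPeR 4 and 5 lie below the other 3 fibroTIPeR cells in all 3 panels, and the cardiomyocyte medians, 6.01 to 6.32, lie below those of every fibroblast; astroTIPeR 1, at 6.30, lies among them.

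Most members moved together from cell to cell. Each gene was set against the per-cell median of the other members over 23 cells, points that share arrays and groups. The correlation was positive for 41 genes and over 0.8 for 23, with a median of 0.77. It was highest for Rps14 and Rplp2 (both 0.94) and Rps3 (0.93), and by class it had a median of 0.84 over the large subunit, 0.75 over the small subunit and 0.34 over the paralogues. FibroTIPeR 1 held the highest value of 23 genes and fibroTIPeR 3 that of 10, while a cardiomyocyte held the lowest value of 32. Shares of all genes are not given for these correlations and counts, so they do not set the members apart from other genes. The 8 genes whose chosen probe set had a negative correlation were Rpl12 (-0.60), Rps10 (-0.44), Rpl14 (-0.32), Rps4l (-0.32), Rps9 (-0.30), Rps16 (-0.28), Rps6 (-0.12) and Rpl3l (-0.05). The mean signals of Rps16, Rpl3l, Rps4l and Rpl14 were 3.47 to 4.24, below the median gene at 5.71. Other probe sets of Rps10 and Rps9 gave different patterns, described further on. Among genes outside the list, the values most like the member median were those of Prpsap1 (r = 0.95), Myo1c (0.94), Vwa7 (0.94), Lgals1 (0.93) and Eef1a1 (0.93) over the same 23 cells.

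**Figure D2:**
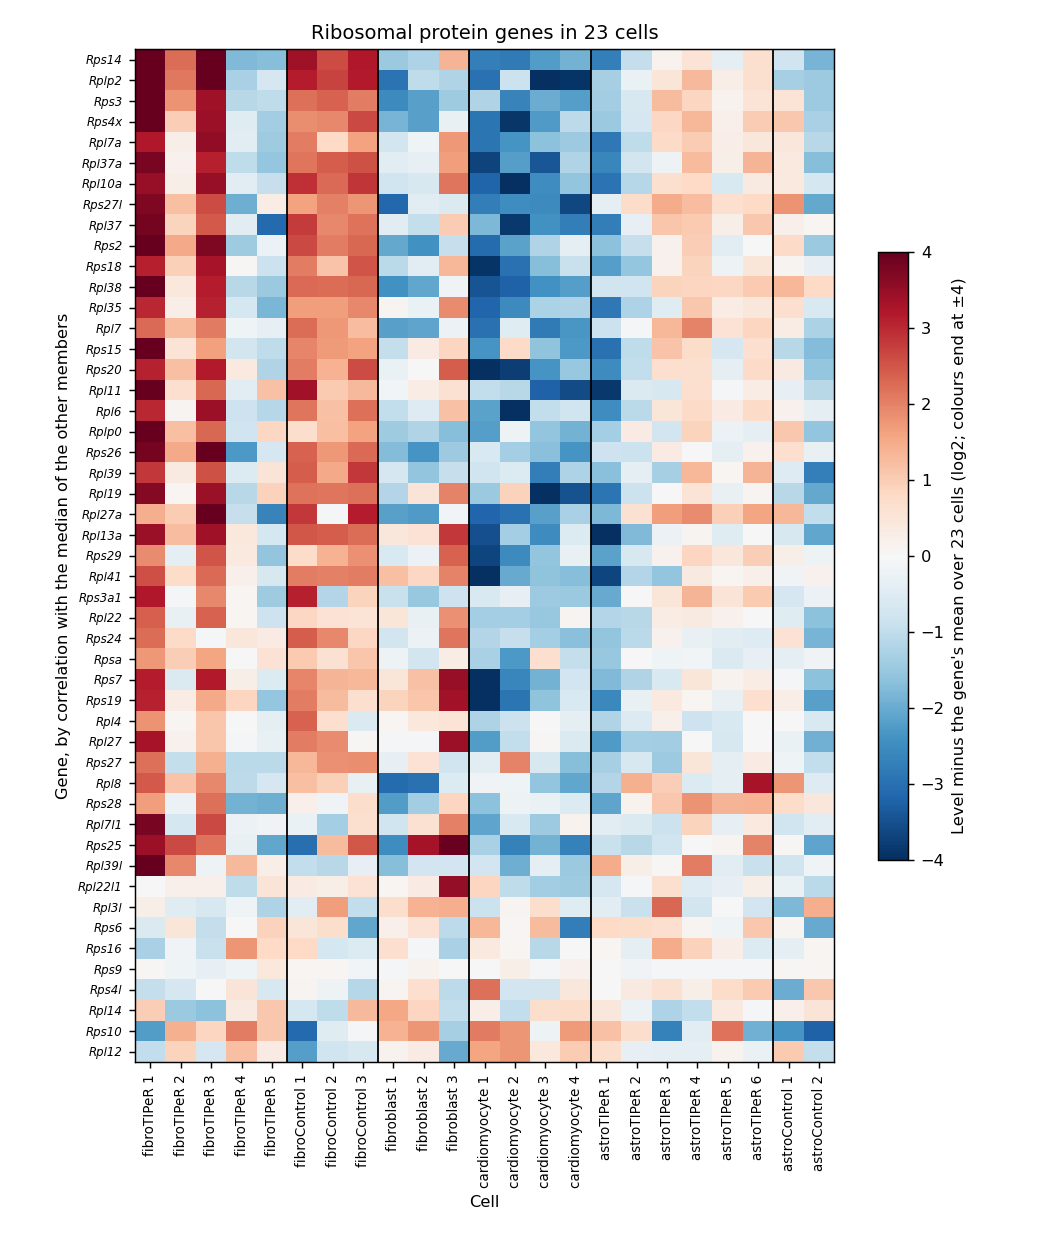
Level of each of the 49 genes in each of 23 cells as the log2 difference from that gene's mean, with genes ordered by their correlation with the median of the other members and black lines between groups. FibroTIPeR 1 and 3 and the fibroControl cells are high over most rows and the cardiomyocytes are low. The chosen probe sets of the 8 genes at the bottom do not follow.

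The spread over cells was largest for the stalk protein gene Rplp2 (SD 2.54, range 3.25 to 12.45), followed by Rps14 (2.32), Rpl13a (2.27), Rps25 (2.22) and Rpl10a (2.14). It was smallest for Rps9 (0.15), Rps16 (0.83), Rpl4 (0.88), Rps4l (0.92) and Rpl14 (0.95). The probe sets with the lowest mean signals were those of Rps16 (3.47), Rpl3l (3.99), Rps4l (4.17), Rpl14 (4.24) and Rpl7l1 (4.96), all below the median gene of the arrays at 5.71. Those with the highest were Rps9 (13.01), Rpl41 (11.34), Rpsa (10.77), Rps28 (10.66) and Rps29 (10.51). Signals of different probes are not comparable as amounts of RNA, and no detection call was available here.

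Among the stalk genes, Rplp2 read 12.45, 9.58, 12.06, 6.16 and 6.80 in fibroTIPeR cells 1 to 5 and 4.49, 6.61, 3.25 and 3.54 in cardiomyocytes. Cardiomyocyte 2 lay between fibroTIPeR 4 and 5, so the groups overlapped. The difference was 4.94 (SE 1.05, limma adjusted p = 0.0214). Its fibroControl levels were 10.61, 10.16 and 10.64 and its fibroblast levels 4.52, 6.46 and 6.27, groups with a wide gap. That difference of 4.72 (SE 1.28) had the smallest p of the members in its comparison but did not pass, at an adjusted p of 0.0565. In astrocytes Rplp2 read 6.15 to 8.76 (median 7.85) with cardiomyocyte RNA and 6.13 and 6.01 without. The ranges did not meet, and the difference of 1.59 (SE 1.28) did not pass. Rplp0, the scaffold on which the acidic proteins sit, read 10.44, 6.54, 7.63, 4.54 and 6.14 in fibroTIPeR and 3.89, 4.12 and 3.63 in fibroblasts. All fibroTIPeR cells were above all fibroblasts, with a difference of 3.18 (SE 0.87, adjusted p = 0.233).

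In the small subunit, 2 genes passed in fibroTIPeR against cardiomyocyte. Rps18, a protein of the subunit head, read 13.47, 11.34, 13.67, 10.42 and 9.52 in fibroTIPeR and 6.44, 7.40, 8.66 and 9.48 in cardiomyocytes. The groups did not overlap, although fibroTIPeR 5 lay close to cardiomyocyte 4. The mean difference was 3.69 (SE 0.78, adjusted p = 0.0213). Rps20, also of the head, read 12.67, 10.79, 12.77, 9.99 and 8.40 against 5.33, 5.83, 7.25 and 8.09, again without overlap. It was 4.30 higher (SE 0.86, adjusted p = 0.0136), with the limit on its probe sets given further on. Rps3, which lines the messenger entry channel, read 9.87, 10.03 and 9.69 in fibroControl and 5.10, 5.49 and 6.23 in fibroblasts. Its difference of 4.26 (SE 1.16) did not pass (adjusted p = 0.0567), nor did those of Rps2 (4.13, 0.0592) and Rps26 (3.96, 0.0716). Rpsa, also known as the laminin receptor, was 1.94 higher in fibroTIPeR than in cardiomyocytes (adjusted p = 0.0534), and Rps4x 3.95 higher (0.0606), without passing. Rps19, a gene mutated in Diamond-Blackfan anaemia, read 4.65, 6.15, 7.45 and 8.45 in cardiomyocytes and 9.97, 10.17 and 12.43 in fibroblasts. The groups did not overlap, and the difference of -4.18 (SE 1.01) did not pass (adjusted p = 0.0919).

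Rps6, the substrate of S6 kinase, averaged 8.04 in fibroTIPeR, 7.78 in fibroControl, 7.97 in fibroblast and 8.04 in cardiomyocyte cells. Its differences among these groups lay between -0.19 and 0.26, and its largest difference, 1.49 in astroTIPeR against astroControl (SE 1.0), did not pass (adjusted p = 0.703).

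In the large subunit, Rpl41, the shortest ribosomal protein, was the 1 member past the threshold in cardiomyocytes against fibroblasts. Its levels were 7.17, 9.31, 9.72 and 9.63 in cardiomyocytes and 12.54, 12.17 and 13.34 in fibroblasts, without overlap. It was lower by 3.73 on the log2 scale (difference -3.73, SE 0.77, limma adjusted p = 0.0322). In fibroTIPeR cells Rpl41 read 13.92, 12.08, 13.60, 11.55 and 10.71, all above every cardiomyocyte, with a difference of 3.41 (SE 0.68, adjusted p = 0.0127). Both Rpl41 calls rest on a probe set of suffix _x_at, which marks probes that can match other transcripts, and without sets of suffix _x_at or _s_at the differences were -1.17 (adjusted p = 0.707) and 1.30 (0.444). Rpl10a, a protein of the mobile L1 stalk, read 12.69, 9.43, 12.68, 8.76 and 8.29 in fibroTIPeR and 6.01, 5.11, 6.71 and 7.63 in cardiomyocytes. These groups did not overlap either, and the difference was 4.01 (SE 0.92, adjusted p = 0.0432). Rpl38, studied for its effect on Hox messenger translation, had differences of 3.83 in the same comparison (adjusted p = 0.0534) and 3.80 in fibroControl against fibroblast (0.0764). For Rpl11, a binder of Mdm2, the fibroTIPeR cells were 3.84 above cardiomyocytes (0.0559). The corresponding values were 3.53 for Rpl13a (0.109) and 1.77 for Rpl22 (0.210), none of which passed.

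Of the paralogues, Rps27l, a p53-induced relative of Rps27, passed in fibroTIPeR against cardiomyocyte. It read 10.13, 7.62, 9.01, 4.45 and 6.69 against 3.64, 3.91, 3.87 and 2.76, without overlap, a difference of 4.04 (SE 0.91, adjusted p = 0.0350). Rpl39l, best known from male germ cells, was the member with the smallest p in fibroTIPeR against fibroControl. It read 11.52, 8.03, 5.89, 7.41 and 6.37 in fibroTIPeR and 5.12, 4.99 and 5.77 in fibroControl. Every fibroTIPeR cell was higher, fibroTIPeR 3 only just, and the difference of 2.55 (SE 0.91) did not pass (adjusted p = 0.543). The heart and skeletal muscle paralogue Rpl3l averaged 3.53 in fibroTIPeR, 5.17 in fibroblasts and 3.86 in cardiomyocytes. Its probe set thus gave no higher signal in the cardiomyocytes than in the fibroblasts, with a difference of -1.31 (adjusted p = 0.587). Rpl22l1 and Rpl7l1 passed in no comparison. Rpl22l1 read 9.27 in fibroblast 3 and 4.35 to 6.63 in every other cell.

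**Figure D3:**
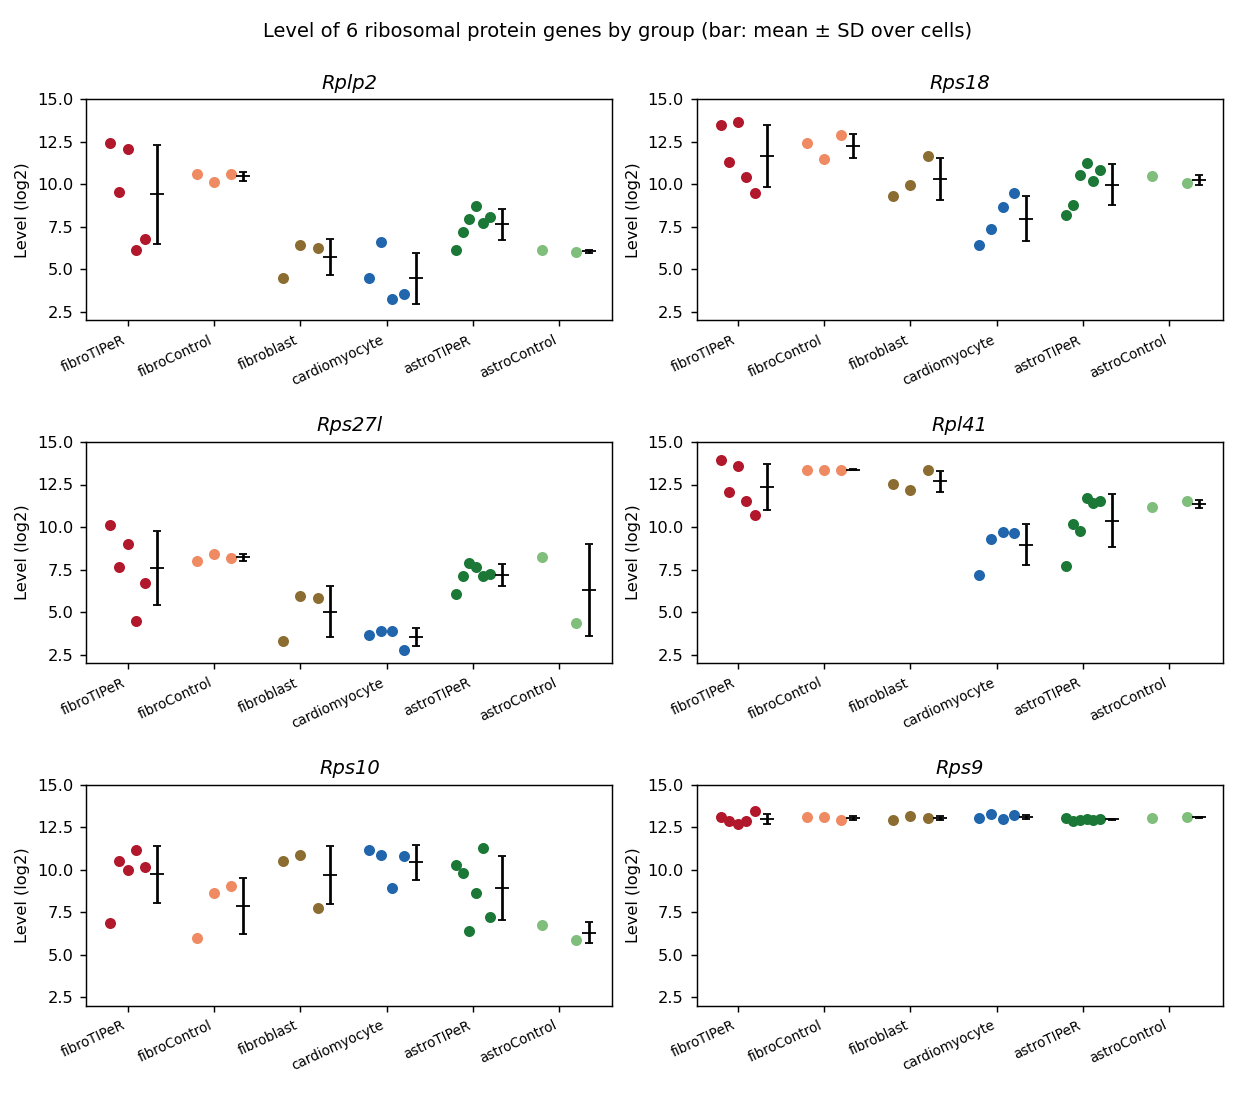
Log2 level of Rplp2, Rps18, Rps27l, Rpl41, Rps10 and Rps9 in each cell by group, with the mean and SD over the cells of a group drawn beside the points. Rplp2, Rps18, Rps27l and Rpl41 are lowest by mean in cardiomyocytes, the chosen probe set of Rps10 has its highest mean there, and that of Rps9 stays between 12.70 and 13.45.

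Cardiomyocytes against untreated fibroblasts asks how the donor cells differ from a recipient type. Of the 49 members 0 were higher and 1 lower at an adjusted p under 0.05, against 0.0989% and 0.126% of all genes. Differences were positive for 12 members and negative for 37, against 54.3% and 45.7% of all genes, with a median of -1.31 against 0.09. An unadjusted p under 0.05 was reached by 19 members, against 9.72%. The cells of the groups did not overlap for 14 members lower and 1 higher, Rpl12, against 4.24% and 8.41% of all genes. The medians were -2.02 over the large subunit and -0.73 over the small subunit. The 18S level was similar in these groups, and with it in the model the median was -1.32. The single call rests on few cells: it was lost without any 1 of the 3 fibroblasts and without cardiomyocyte 1 or 2, giving 0 calls. It held without cardiomyocyte 4, the cell with high Vim.

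FibroTIPeR against fibroControl sets cardiomyocyte RNA against fibroblast RNA in the same recipient. With limma 0 of 49 members were higher and 0 lower, against 0.0% and 0.0055% of all genes, and 1 member had an unadjusted p under 0.05 (6.62% of all genes). The median was -0.59 against -0.02, with 12 members positive and 37 negative, against 48.8% and 51.2%. No overlap was seen for 1 member higher, Rpl39l, and for 0 lower, against 1.32% and 1.68% of all genes. Next in p were Rpl12 (1.37), Rps27 (-1.58) and Rps10 (1.85), all with adjusted p from 0.8 to 0.808. With the 18S level in the model the median was 0.12. With fibroTIPeR 1 to 3 alone it was 0.37, and with fibroTIPeR 4 and 5 alone it was -1.97 and 2 members were lower, against 0.5% of all genes. These cells were divided by their 18S signal, which the members' own levels follow, so the split values are descriptions.

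FibroTIPeR and fibroControl cells were each also set against the same 3 untreated fibroblasts, which the comparisons share. In fibroTIPeR against fibroblast 0 members were higher and 0 lower with limma, against 0.0055% and 0.0495% of all genes, and 14 had an unadjusted p under 0.05 (10.1% of all genes). The median was 0.75 against 0.0 over all genes, with 39 members positive and 10 negative, against 50.2% and 49.8%. No overlap was found for 4 higher (Rplp0, Rps3, Rpl39 and Rpl39l) and 1 lower (Rpl3l), against 2.65% and 2.35%. The smallest p belonged to Rplp0 (3.18), Rps3 (3.59), Rps2 (3.36) and Rplp2 (3.66), with adjusted p from 0.233 to 0.267. With fibroTIPeR 1 to 3 alone the median was 1.97 and 11 members were higher, against 1.46% of all genes. With fibroTIPeR 4 and 5 alone the median was -0.35. These split values are again descriptions, because the split goes with the members' own levels. In fibroControl against fibroblast 0 members were higher and 0 lower with limma, against 0.72% and 0.835% of all genes, and 14 had an unadjusted p under 0.05 (17.3%). The median was 1.30 against 0.03, with 36 members positive and 13 negative, against 51.1% and 48.9%. Further, 23 members were higher without overlap and 0 lower, against 12.5% and 10.9% of all genes. With the 18S level in the model these medians turned to -0.85 and -0.81. The 18S levels of fibroControl and fibroblast cells did not overlap, so its part there cannot be told from that of the group. With array weights 14 members were higher in fibroControl, against 4.97% of all genes.

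FibroTIPeR against cardiomyocyte compares the recipients with the donor type. Here 6 members were higher and 0 lower, against 0.423% and 0.137% of all genes. The median was 2.88 against -0.14, with 42 members positive and 7 negative, against 43.3% and 56.7%. Without overlap, 15 members were higher and 0 lower, against 1.9% and 2.01%. An unadjusted p under 0.05 was reached by 35 members, against 14.3% of all genes. The median was 3.08 over the large subunit, 2.60 over the small subunit and 1.40 over the paralogues. The count depended on single cells: it was 0 without fibroTIPeR 1, fibroTIPeR 3 or cardiomyocyte 1, 3 without cardiomyocyte 2, 17 without fibroTIPeR 4 and 24 without fibroTIPeR 5. Shares of all genes are not given for these fits, so their counts describe only the dependence on single cells. With fibroTIPeR 1 to 3 alone the count was 33 (3.45% of all genes) and with fibroTIPeR 4 and 5 alone 0 (0.0165%). This split followed the 18S signal, and the members' own levels with it, so both counts are descriptions. With the 18S level in the model the count was 0 (0.011%), with a median of 0.76. Only fibroTIPeR 4 and 5 shared the 18S range of the cardiomyocytes, so that fit separates 18S from group poorly.

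**Figure D4:**
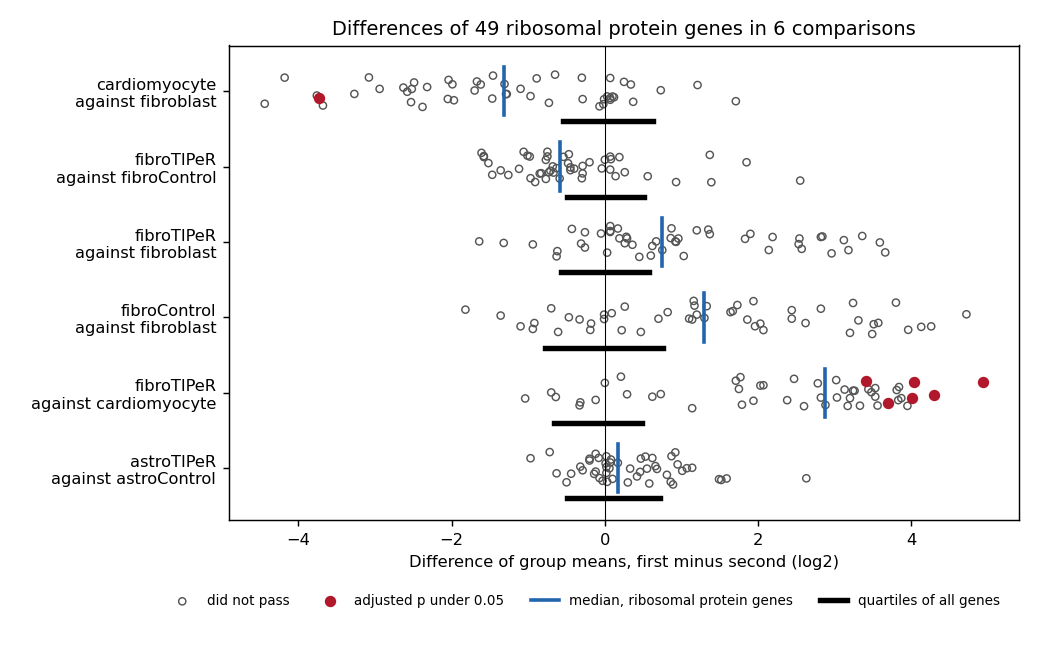
Difference of group means in log2 for each of the 49 genes in 6 comparisons, with red points for an adjusted p under 0.05, a blue line at the members' median and a black bar over the quartiles of all 18193 genes. Red points occur for 1 member in cardiomyocyte against fibroblast and 6 in fibroTIPeR against cardiomyocyte.

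In astrocytes given cardiomyocyte RNA 0 of 49 members were higher and 0 lower with limma than in mock-transfected astrocytes, against 0.011% and 0.0385% of all genes. An unadjusted p under 0.05 was reached by 1 member, Rps10, against 9.44%. The median was 0.17 against 0.08, with 34 members positive and 15 negative, against 54.4% and 45.6%. No overlap was found for 1 member higher, Rplp2, and 1 lower, Rps9, against 7.02% and 4.79%. The control group was 2 cells with medians of 8.28 and 6.51, and without astroControl 1 the median difference was 0.90, without astroControl 2 -0.38. The signal of Gapdh 3′ minus 5′ probe sets, a measure of how far copies reach from the 3′ end, was 1.51 and 2.63 in astroControl and 2.94 to 5.05 in astroTIPeR, without overlap, and its part in these values was not tested. Rps10, Rpl39, Rps6 and Rps4l had the smallest p, with differences of 2.63, 1.52, 1.49 and 0.95. The transfer effect in fibroblasts minus that in astrocytes had a median of -0.80 against -0.09 over all genes, with 9 members positive and 40 negative, against 46.3% and 53.7%. With limma 0 of 49 were higher and 0 lower (0.0% of all genes in each direction), and 0 had an unadjusted p under 0.05, against 7.65%. The smallest p belonged to Rpl39 (-2.64, adjusted p = 0.671), then Rplp2 (-2.64), Rps14 (-2.47) and Rpl7 (-1.84). The fibroblast controls received RNA and the astrocyte controls were mock transfected, so this difference also holds that of the controls.

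Part of the variation among members lay between probe sets of one gene. Of the 24 members with more than 1 probe set, 19 had probe sets of both signs in cardiomyocyte against fibroblast and 9 in fibroTIPeR against cardiomyocyte. For Rps10, at the subunit's beak, the chosen probe set (1416719_a_at, the one with the highest mean) correlated with the member median at -0.41, while 4 of its other sets did so at 0.66 to 0.91. The chosen set averaged 10.42 in cardiomyocytes and 7.87 in fibroControl, and the set 1439374_x_at averaged 2.99 and 8.19. Rps9 was nearly flat on its chosen set, 12.70 to 13.45 over 23 cells, and ran from 7.86 to 12.30 on 1434624_x_at. For Rps20 the 2 sets of suffix _x_at gave means of 10.92 and 10.38 in fibroTIPeR and 6.63 and 5.95 in cardiomyocytes. Its set 1450417_a_at gave 5.57 and 3.35, a difference of 2.21 in the same direction, and its set 1421935_at gave 4.76 and 5.27. With sets of suffix _x_at or _s_at left out, 1421935_at has the highest mean and stands for the gene, and the Rps20 difference was then -0.51 (adjusted p = 0.700). Of the chosen sets 18 of 49 carried such a suffix, and without those sets 44 members remained, of which 4 passed in fibroTIPeR against cardiomyocyte, all higher, against 0.352% of all genes. Rplp2, Rps27l and Rpl10a were among the 4. Rps18, on the set of highest mean among those it had left, had a difference of 3.73 without passing (adjusted p = 0.0985).

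**Figure D5:**
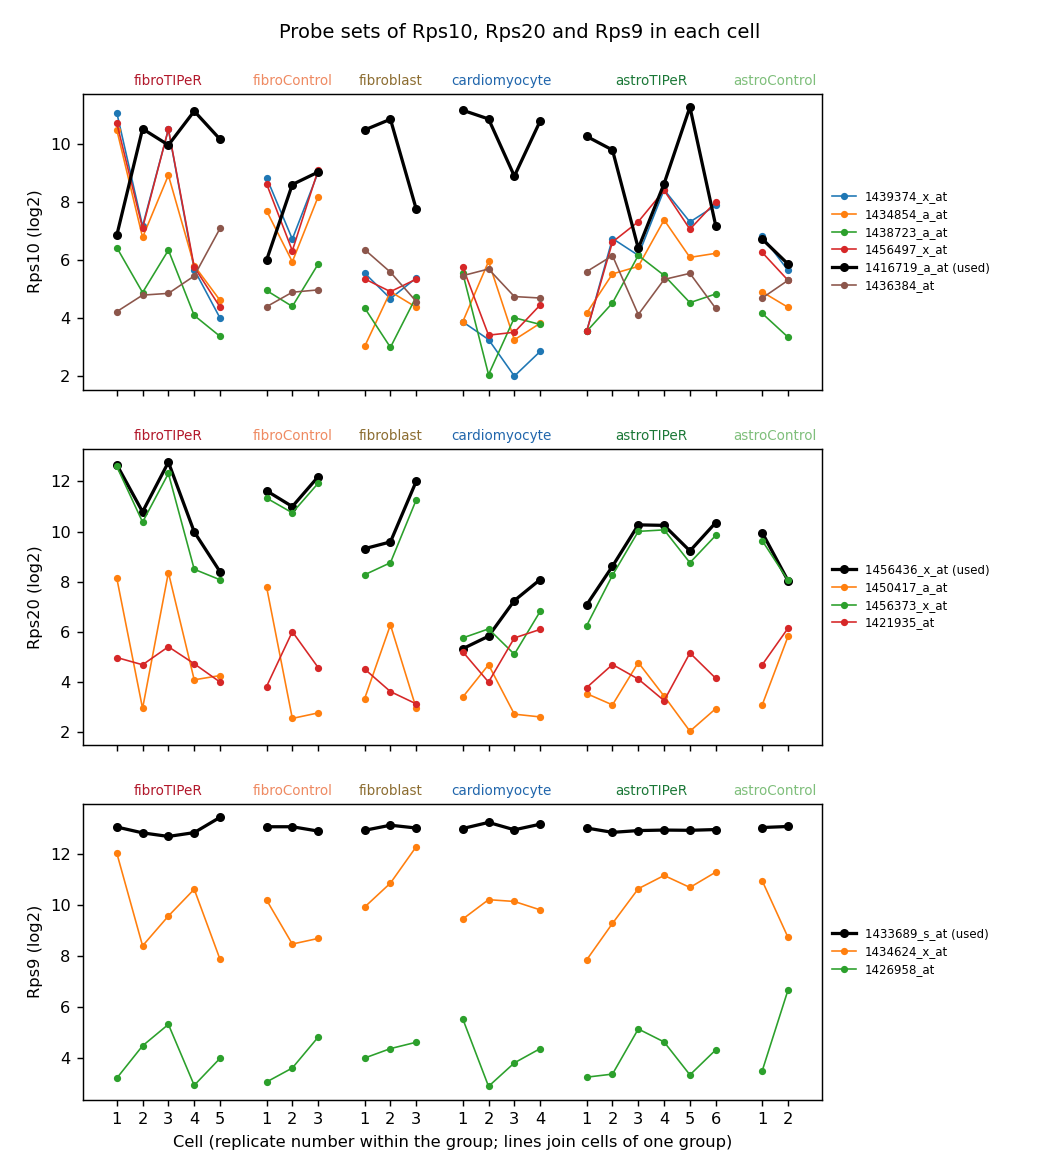
Log2 level of every probe set of Rps10, Rps20 and Rps9 in each of 23 cells by group, with the probe set used for the gene in black and thin coloured lines for the others. The black line of Rps10 runs against most coloured ones, 2 sets of Rps20 run together, and the black line of Rps9 is flat.

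Genes that work with the ribosome were described beside the members. Of 15 measured other TOP and ribosome-linked genes, 3 were higher in fibroTIPeR than in cardiomyocytes, against 0.423% of all genes. They were the elongation factor gene Eef1a1 (10.03 against 3.40, difference 6.63, adjusted p = 0.00105), the poly-A binding protein gene Pabpc1 (4.78, 0.00897) and the nucleolar chaperone gene Npm1 (4.17, 0.0432). The median of the 15 was 0.80 there, below the members' 2.88. In fibroControl against fibroblast Naca, a subunit of the nascent polypeptide-associated complex, was lower by 7.48 (difference -7.48, adjusted p = 0.00872), 1 of 15 lower against 0.835% of all genes, and the list's median was -0.01. Of 30 ribosome biogenesis genes 1 passed in any comparison, the small-subunit assembly factor gene Noc4l, 7.52 higher in fibroControl than in fibroblast (adjusted p = 0.0111), against 0.72% of all genes. Of 76 mitochondrial ribosomal protein genes 0 passed in any comparison with limma. Their medians stayed between -0.35 and 0.27, and 4 to 20 had an unadjusted p under 0.05 in each. The fewest, 4 of 76, were in astroTIPeR against astroControl, where 9.44% of all genes reached it, and the most, 20 of 76, in fibroControl against fibroblast, where 17.3% did.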

How the data were processed

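The deposited values table held log2 values of 45101 probe sets for 23 arrays, 1 cell each, as judged from their range. The authors' steps of summarization and normalization were not given in the sources used here. Probe sets with 1 gene symbol (34945) were kept and 64 control sets left out of the tests. The values were quantile normalized because column medians differed by 1.29, over a limit of 1. A gene was represented by its probe set of highest mean. limma 3.58.1 in R 4.3.3 fitted the 6 group means over all 23 cells, with eBayes and a trend, two-sided, Benjamini-Hochberg adjustment over 18193 genes and a threshold of 0.05; the fit was tested on simulated data. Figures were drawn with matplotlib 3.10.9.

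Gene IDs of all 49 members matched the RefSeq table. The text names, per comparison, members past the threshold or else the 4 with the smallest p, 24 fixed genes (18 of them members), the 5 members at each end of mean and SD, up to 4 called genes per pathway list, and the 5 most similar other genes. Members that did not overlap or lay close to the threshold were also named after their values were seen. Members and lists were chosen with earlier results of these data known. Alternatives covered normalization, low genes, probe sets, the trend, array weights, the samples in the fit, an 18S covariate, the replicate number and each cell left out; leaving out probe sets of suffix _x_at or _s_at was added after seeing the data. The number of arrays limits the precision.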

Additional observations from a re-analysis of the deposited data

Results flagged for a closer look

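Of 90 gene and group combinations tested, with 4 to 6 cells, 10 had 1 cell far from the others. The measure was its gap to the nearest cell over the range of the group. The 90 did not cover every member in each of those groups. For unrelated combinations chance gives about 1 in 20. These combinations share cells, and astroTIPeR 1 recurs among the 10, so the count cannot be set against that share. AstroTIPeR 1 was the low cell for Rpl11 (0.712; 2.95 against 6.16 to 7.47), Rpl13a (0.681; 3.78 against 7.76 to 9.63), Rps19 (0.705; 6.48 against 8.79 to 9.76) and Rpsa (0.626; 9.26 against 10.21 to 10.77). AstroTIPeR 3 was the high cell for Rpl3l (0.727; 6.28 against 3.09 to 3.96). Cardiomyocyte 4, the cell with high Vim, was high for Rpl22 (0.891; 10.51 against 8.87 to 9.05). Cardiomyocyte 1 was high for Rpl22l1 (0.829; 6.63 against 4.35 to 4.74) and low for Rpl41 (0.838; 7.17 against 9.31 to 9.72). For Rps10, fibroTIPeR 1 was low (0.726; 6.85 against 9.96 to 11.13), as was cardiomyocyte 3 (0.837; 8.89 against 10.79 to 11.16).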

How the results depend on the processing

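In cardiomyocyte against fibroblast the 1 call became 0 with values as deposited, median centring, quantile normalization within each array set, the mean of all probe sets, eBayes without trend, the compared groups alone, and no _x_at or _s_at sets; it became 2 with every probe set, 7 with array weights, 4 with the 18S covariate, and 0 to 1 leaving out single cells. The median of -1.31 became -0.73 with every probe set, -0.57 without _x_at or _s_at sets, and -1.80 to -0.92 leaving out cells. In fibroTIPeR against cardiomyocyte the 6 calls became 12 among genes above the median level, 1 with the mean of probe sets, 15 with every probe set, 0 with the compared groups alone or the 18S covariate, 33 and 0 with fibroTIPeR 1 to 3 or 4 and 5 alone, and 0 to 24 leaving out cells; the median of 2.88 became 0.76 with 18S, 0.98 with fibroTIPeR 4 and 5 alone, and 2.24 to 3.43. In fibroTIPeR against fibroControl, fibroTIPeR 4 and 5 alone gave 2 calls; against fibroblast, fibroTIPeR 1 to 3 alone gave 11, and 18S a median of -0.85. In fibroControl against fibroblast every probe set gave 1 call, array weights 14 and no _x_at or _s_at sets 1; the median became -0.81 with 18S and 0.93 to 1.93 leaving out cells. The median difference between recipients became -2.28 with fibroTIPeR 4 and 5 alone. Directions reversed for Rps20 (-0.51, no _x_at or _s_at sets, from 1421935_at alone; its set 1450417_a_at gave 2.21) and Rps4l in astrocytes (-0.58 without astroControl 1; -0.58 to 2.49 leaving out cells). The causes were not tested. With every probe set, counts and medians were taken over the 105 member probe sets and not over the 49 genes. The fit of genes above the median level left out members of low signal. These counts are given here without the share of all genes and describe only the dependence on the processing. Among all values of counts and medians, 266 were labelled the same, which for a count means equal or close to the main count. The others were 20 weaker, 13 stronger and 9 moved. For single named genes 515 values were labelled the same, 75 weaker, 8 stronger and 2 reversed. Replicate numbers did not pair the cells: deviations of same-numbered cells correlated at -0.341 to 0.285 over 44 pairs. With the replicate number as a block, fibroTIPeR against cardiomyocyte gave 7 calls, and cardiomyocyte against fibroblast 1. No detection call or background level was used, so the lowest signals have no stated limit.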

Other observations

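The 110 probe sets that list a ribosomal protein gene beside other genes were not used for the members, and are given as values only. Their per-cell median ran from 5.55 to 6.05 in cardiomyocytes, 6.88 to 7.87 in fibroblasts, 9.0 to 9.89 in fibroControl and 6.43 to 11.23 in fibroTIPeR cells. It ran from 6.30 to 8.32 in astroTIPeR and 6.55 to 8.24 in astroControl cells. In cardiomyocyte against fibroblast 86 of the 110 had a negative difference, with a median of -1.30.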
